A study of Mus musculus with 6 samples.

Results

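The genes of the collagen- and fibronectin-binding integrins, together with Ilk, were followed in RNA of the mouse Achilles tendon. The set was chosen by gene name, with earlier results of these data known, and holds 10 genes. They include the collagen-binding alpha chains Itga1, Itga2, Itga10 and Itga11, and the alpha chains Itga5 and Itgav of the fibronectin and vitronectin receptors. The others are the beta chains Itgb1, Itgb3 and Itgb5, and Ilk. All 10 stood among the 24411 genes of the count table, and all 10 were among the 13466 genes that passed a filter on low counts. The 3 Piezo1 GOF libraries came from C57BL/6 mice aged 18 weeks with the genotype Scx-Cre/Piezo1 GOF. This genotype joins a gain-of-function allele of Piezo1, a cation channel opened by force on the membrane, with a Cre recombinase under control of Scx, a transcription factor gene of tendon cells. The 3 WT libraries came from WT mice of that strain and age, and whether they carried the Cre is not given in the labels. RNA was taken from whole tendon, so cells outside the Scx lineage also contributed. The sources do not state one animal per library, so the tests speak of the spread from library to library, which may be partly technical.

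Integrins are the main receptors by which cells hold on to the matrix. Each is a pair of one alpha and one beta chain, and the beta 1 chain encoded by Itgb1 is the partner of all 4 collagen-binding alpha chains and of the alpha 5 chain. The alpha v chain pairs with several beta chains, among them beta 3 and beta 5, and these pairs bind vitronectin, osteopontin and other proteins with the RGD motif. Integrin-linked kinase, the product of Ilk, docks at the inner end of the beta chain with the PINCH and parvin adaptors and joins integrins to actin.

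In the Piezo1 GOF tendons, 3 of the 4 collagen-binding alpha chains, Itga2, Itga10 and Itga11, and the vitronectin receptor chain Itgb5 lay higher in every library than in any WT library. Itga2 had the largest difference, with 3.81 times the WT level, followed by Itga11 at 1.88 times, Itga10 at 1.67 times and Itgb5 at 1.65 times, all as fitted by edgeR. Itga1, Itgav, Itgb1, Itgb3 and Ilk overlapped between the genotypes, and Itga5 lay lower in every Piezo1 GOF library than in any WT library. None of the 10 passed an adjusted p of 0.05 over all genes by edgeR's quasi-likelihood test, in which 0.0149% of tested genes were called higher and 0% lower. By the same test without adjustment, 4 of the 10 were higher and 0 lower at p under 0.05, against 10.2% and 9.59% of all tested genes. DESeq2 called Itga2 and Itga11 higher and 0 members lower at an adjusted p of 0.05 (3.46% and 2.51% of genes). Limma voom with sample quality weights called the same pair higher and 0 lower (0.72% and 0.141%). Its adjusted p-values were just under the threshold, at 0.0469 for Itga2 and 0.0487 for Itga11. Groups without overlap, with 4 members higher and 1 lower, were found for 13.6% of tested genes in the higher and 12.1% in the lower direction. Of the 10, 7 had a positive fold change, as did 49.7% of all tested genes. The median log2 fold change was 0.11, against -0.004 over all tested genes. Without Piezo1 GOF replicate 2, WT replicate 1 or WT replicate 3, the 4 members at an unadjusted p under 0.05 became 2, Itga2 and Itga11.

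Several cell type markers moved with genotype in the same libraries. The summed share of counts of 15 skeletal muscle markers was 1.22% to 3.5% in Piezo1 GOF and 4.54% to 6.83% in WT, and that of 10 tenocyte markers was 2.70% to 5.5% in Piezo1 GOF and 0.456% to 1.6% in WT. The 12 macrophage markers took 0.0638% to 0.0908% in Piezo1 GOF and 0.0161% to 0.027% in WT. The genotypes did not overlap for these 3 lists, and no marker in them was at 0 in all libraries. WT replicate 1 stood apart with 0.38% of counts in 6 Schwann cell markers and 0.53% in 10 smooth muscle and pericyte markers, against 0.0147% to 0.0642% and 0.0984% to 0.142% in the other 5 libraries. In whole tissue a change in the number of cells of a type cannot be told apart from a change in RNA per cell, and the part of these shifts in the values below was not tested. Total counts lay between 8131527 and 17180856 per library.

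**Figure D1:**
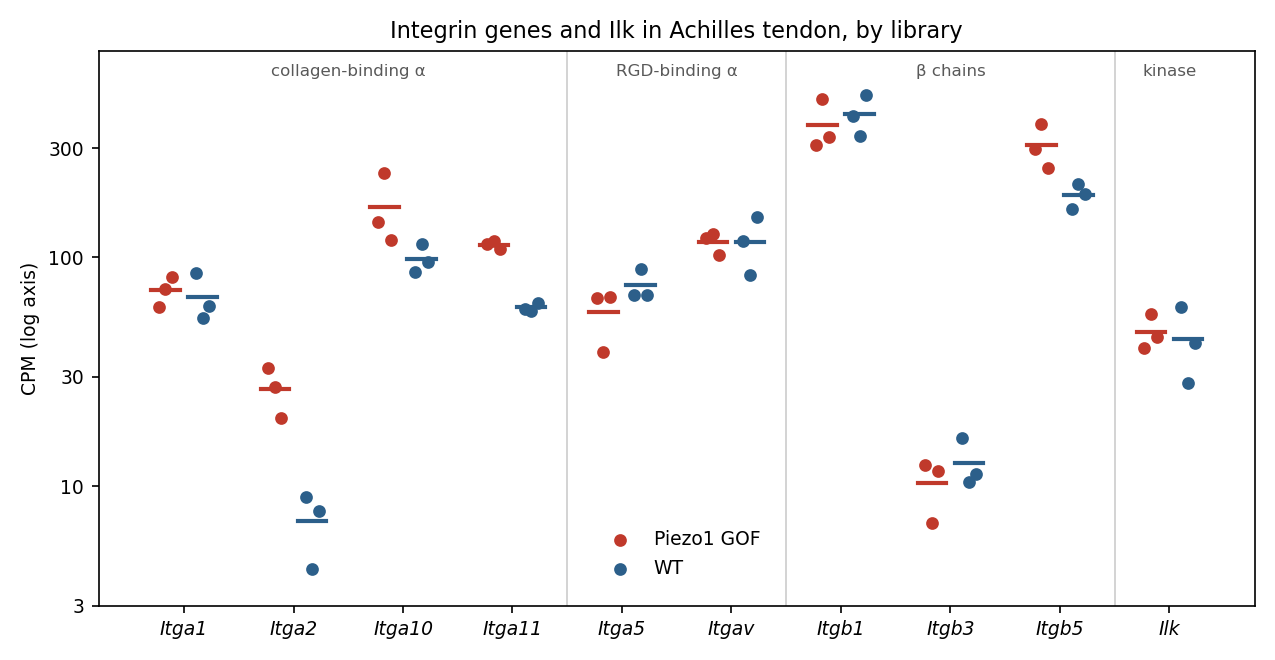
Normalised level of each gene in CPM (counts scaled to library size, log axis), with 1 point per library, Piezo1 GOF left of WT, and a bar at the mean of 3 libraries. Itga2, Itga10, Itga11 and Itgb5 lie higher in all 3 Piezo1 GOF libraries than in the WT libraries, and Itga11 has the tightest points, at 108.5 to 117.5 CPM in Piezo1 GOF and 58.4 to 63.4 CPM in WT.

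Among the collagen-binding chains, Itga2 encodes alpha 2, which with beta 1 forms a collagen receptor known from platelets, epithelia and fibroblasts. It was at 32.9, 27.1 and 19.9 CPM (counts scaled to the TMM-normalised library size) in Piezo1 GOF replicates 1 to 3 and at 8.915, 4.343 and 7.805 CPM in WT replicates 1 to 3. The lowest Piezo1 GOF library thus stood above the highest WT library, and the counts behind these values were 253, 270 and 268 in Piezo1 GOF and 83, 68 and 69 in WT. The log2 fold change of Piezo1 GOF over WT was 1.93 ± 0.33 (SE; edgeR adjusted p = 0.0572, DESeq2 adjusted p = 7.11e-05), with a 95% interval of 1.18 to 2.68. It passed by edgeR without WT replicate 1 (adjusted p = 0.0414), and without any 1 of the other 5 libraries the adjusted p was 0.102 to 0.209. Markers of platelets, cells that carry this receptor, are given beside Itga2. The summed share of 10 such markers was 0.00316% to 0.0048% of counts in Piezo1 GOF and 0.000937% to 0.0017% in WT, without overlap, but Pf4 made up most of it, and only 4 of the 10 passed the filter on low counts. Pf4, the chemokine CXCL4, was at 30.1 ± 4.21 CPM in Piezo1 GOF and 7.61 ± 3.05 CPM in WT (SD, n = 3 each). The macrophage markers given above lay in the same direction as Pf4, and which cells gave the Pf4 counts was not tested. Gp1bb also lay in that direction, at 2.78 ± 1.10 and 0.957 ± 0.253 CPM. Gp1ba, the other chain of the same platelet adhesion receptor, lay in the opposite direction without overlap, at 0.863 ± 0.287 CPM in Piezo1 GOF and 2.26 ± 0.784 CPM in WT. The platelet integrin chain Itga2b was at 1.87 ± 0.58 and 1.38 ± 0.477 CPM with overlapping groups. The part of platelets in the Itga2 value was not tested.

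Itga11 encodes alpha 11, a collagen receptor chain of fibroblasts and other mesenchymal cells. It was at 114.7, 117.5 and 108.5 CPM in Piezo1 GOF and at 59.5, 58.4 and 63.4 CPM in WT. The libraries of each genotype lay within a narrow band, with a coefficient of variation of 4.03% in Piezo1 GOF and 4.31% in WT, and the bands were far apart. Its log2 fold change was 0.91 ± 0.18 (SE; edgeR adjusted p = 0.0926, DESeq2 adjusted p = 0.00169), with a 95% interval of 0.49 to 1.33. Without each library in turn the log2 fold change stayed between 0.88 and 0.95, with edgeR adjusted p-values of 0.0727 to 0.256.

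Itga10 encodes alpha 10, the collagen receptor chain best known from cartilage. It was at 142.5, 234.5 and 118.7 CPM in Piezo1 GOF and at 86.25, 114.2 and 95.59 CPM in WT. The groups came close, since the lowest Piezo1 GOF library stood just above WT replicate 2, and Piezo1 GOF replicate 2 stood well above the rest. The log2 fold change was 0.74 ± 0.29 (SE; edgeR adjusted p = 0.217), and it was 0.43 without Piezo1 GOF replicate 2 (edgeR adjusted p = 0.488). The 10 cartilage markers took 1.32%, 2.34% and 0.79% of counts in Piezo1 GOF and 0.40%, 0.0488% and 0.205% in WT. Nearly all of that share was Chad, which encodes chondroadherin, at 13740, 20950 and 7209 CPM in Piezo1 GOF and 3561, 465.1 and 2180 CPM in WT. Other markers of the list were mixed in their order of the Piezo1 GOF libraries. Hapln1 (21.98, 51.76 and 15.64 CPM) and Sox9 (66.58, 95.4 and 21.43 CPM) had the same order as Chad and Itga10. Among these libraries Acan was highest in replicate 1, and Col2a1, Col11a2 and Matn3 in replicate 3. The WT libraries did not keep the order shared by Itga10, Chad and Hapln1. In WT, Itga10 was highest in replicate 2, where Chad and Hapln1 (5.478, 1.022 and 4.072 CPM) were lowest. Sox9 (23.95, 33.21 and 17.76 CPM in WT) was highest there, as Itga10 was. The part of cartilage cells in the Itga10 value was not tested.

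Itga1 encodes alpha 1, a collagen receptor chain of smooth muscle, capillary endothelium and fibroblasts, and was the exception among the collagen-binding chains. It was at 60.6, 72.8 and 82.3 CPM in Piezo1 GOF and at 85.3, 54.2 and 61.0 CPM in WT, with overlapping groups. Its log2 fold change was 0.11 ± 0.24 (SE; edgeR adjusted p = 0.827), with a 95% interval of -0.43 to 0.65. The 10 smooth muscle and pericyte markers took 0.0984% to 0.142% of counts in Piezo1 GOF and 0.121% to 0.53% in WT, and the 10 endothelial markers 0.0648% to 0.0883% and 0.0706% to 0.159%, with overlap in both.

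Itga1 and Itga2 are neighbours on the minus strand of chromosome 13 of the mm10 build, where Itga2 spans 114833081 to 114932100 and Itga1 spans 114953096 to 115101964, with 20995 bases between them. The exons of Itga1 share 685 bases and those of Itga10 share 1739 bases with a predicted gene of the same strand (Gm49395 and Gm42957). Neither predicted gene was among the genes counted, and whether the overlaps affected the counts of these members was not tested. Itga11 lies on the plus strand of chromosome 9 at 62677826 to 62783982, and Itga10 on the plus strand of chromosome 3 at 96645584 to 96664519. The start regions of the neighbour pair and of Itga11 are shown because the pair differed in its values and Itga11 varied least between libraries. Each run holds 250 bases before and 50 after the start of transcription, from RefSeq on GRCm38.p6, in the direction of the gene, and the windows are chr13:114932051-114932350 (minus), chr9:62677605-62677904 (plus) and chr13:115101915-115102214 (minus). Capitals mark matches to the letters searched on both strands.
Itga2: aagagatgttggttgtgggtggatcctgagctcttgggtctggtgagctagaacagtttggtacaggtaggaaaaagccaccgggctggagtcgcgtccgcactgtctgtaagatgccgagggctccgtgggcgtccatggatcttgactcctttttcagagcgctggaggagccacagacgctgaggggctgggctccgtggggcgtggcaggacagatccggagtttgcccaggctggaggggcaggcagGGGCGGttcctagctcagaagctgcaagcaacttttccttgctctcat
Itga11: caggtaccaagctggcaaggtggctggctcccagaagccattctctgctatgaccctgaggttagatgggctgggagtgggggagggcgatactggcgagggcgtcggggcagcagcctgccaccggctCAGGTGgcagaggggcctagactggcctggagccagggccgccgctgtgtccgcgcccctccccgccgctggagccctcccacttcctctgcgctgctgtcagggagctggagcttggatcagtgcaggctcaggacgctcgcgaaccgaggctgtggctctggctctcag
Itga1: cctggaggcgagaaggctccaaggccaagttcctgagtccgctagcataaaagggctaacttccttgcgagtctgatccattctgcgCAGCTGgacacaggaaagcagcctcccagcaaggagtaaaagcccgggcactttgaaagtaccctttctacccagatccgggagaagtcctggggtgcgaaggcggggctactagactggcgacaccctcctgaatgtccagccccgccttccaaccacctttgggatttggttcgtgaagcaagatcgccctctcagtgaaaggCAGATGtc
The motifs searched were the Sp1 letters GGGCGG, the TEAD letters GGAATG, the AP-1 letters TGANTCA, the RUNX letters TGTGGT and the E-box letters CANNTG, and matches of different motifs did not overlap in these 3 windows. Itga2 held 1 Sp1 match that begins at base 3 after the start, Itga11 held 1 E-box match 121 bases before it, and Itga1 held E-box matches 163 bases before and 43 bases after it. Of all 32851 start windows of this length, 35.7% held the Sp1 letters, 72.3% the E-box letters, 14.7% the TEAD letters, 7.81% the AP-1 letters and 16.8% the RUNX letters. Among the windows of the other members, Itga10 held the TEAD letters 75 bases before its start and Itgb1 held them 7 bases before. The Sp1 letters also stood in the windows of Itgav, Itgb1, Itga5, Itgb5 and Ilk, and the AP-1 letters in none of the windows of the 9 members that were matched, all but Itgb3. The 3 collagen-binding chains with higher values had no motif of this list in common, and a match describes letters only.

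Of the alpha chains of the fibronectin and vitronectin receptors, Itga5 lay lower in Piezo1 GOF without overlap, and Itgav overlapped. Itga5 encodes alpha 5, which with beta 1 forms the classical fibronectin receptor. It was at 66.7, 38.7 and 66.8 CPM in Piezo1 GOF and at 68.5, 89.0 and 68.8 CPM in WT. The groups did not overlap, yet 2 libraries of each genotype were within a few CPM of each other, and the fitted log2 difference was -0.39 ± 0.26 (SE; edgeR adjusted p = 0.417). Without Piezo1 GOF replicate 2 it was -0.15 (edgeR adjusted p = 0.799). Itgav encodes alpha v, and it was at 121.8, 126.7 and 102.3 CPM in Piezo1 GOF and at 117.6, 83.6 and 149.5 CPM in WT. Its mean was the same to 3 digits in both genotypes, at 117 ± 12.9 CPM in Piezo1 GOF and 117 ± 33.0 CPM in WT (SD, n = 3 each), and the 95% interval of the log2 fold change was -0.58 to 0.58. Itga5 spans 103344286 to 103366763 on chromosome 15 (minus strand), and Itgav on the plus strand of chromosome 2 at 83724397 to 83806916.

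Of the 3 beta chains, Itgb5 lay higher in Piezo1 GOF without overlap, and Itgb1 and Itgb3 overlapped. Itgb5 encodes beta 5, a partner of alpha v alone, and was at 297.8, 384.4 and 244.9 CPM in Piezo1 GOF and at 163.3, 210.0 and 189.8 CPM in WT. All Piezo1 GOF libraries stood above all WT libraries, and the fitted difference was 0.72 ± 0.26 on the log2 scale (SE; edgeR adjusted p = 0.197; 95% interval 0.13 to 1.31). Itgb1 encodes the shared beta 1 chain and was at 309.1, 490.9 and 334.6 CPM in Piezo1 GOF and at 416.5, 340.5 and 514.7 CPM in WT. Those values overlapped, and the fitted difference was -0.16 ± 0.30 on the log2 scale (SE; edgeR adjusted p = 0.786; 95% interval -0.84 to 0.51). Itgb3 encodes beta 3, the partner of alpha v on osteoclasts and endothelium and of the Itga2b product on platelets. It was the member with the lowest counts in Piezo1 GOF, at 12.35, 6.922 and 11.64 CPM in Piezo1 GOF and 16.2, 10.4 and 11.3 CPM in WT, with overlap. Its fitted difference was -0.29 ± 0.32 on the log2 scale (SE; edgeR adjusted p = 0.627). Itgb5 lies on the plus strand of chromosome 16 at 33829665 to 33949338, Itgb1 on the plus strand of chromosome 8 at 128685654 to 128733200 and Itgb3 on the plus strand of chromosome 11 at 104608000 to 104670476.

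Ilk was at 40.05, 56.38 and 44.93 CPM in Piezo1 GOF and at 60.9, 28.3 and 42.2 CPM in WT. The WT libraries spanned the Piezo1 GOF range on both sides, and the log2 fold change was 0.11 ± 0.29 (SE; edgeR adjusted p = 0.863). The annotated exons of Ilk share 2106 bases with Taf10 and 355 bases with Rrp8, both on the opposite strand, and whether strand was used in counting is not given in the sources used here. The Ilk value is therefore uncertain, and Ilk was the one member with counts that were not whole. Ilk lies on the plus strand of chromosome 7 at 105736592 to 105742925.

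**Figure D2:**
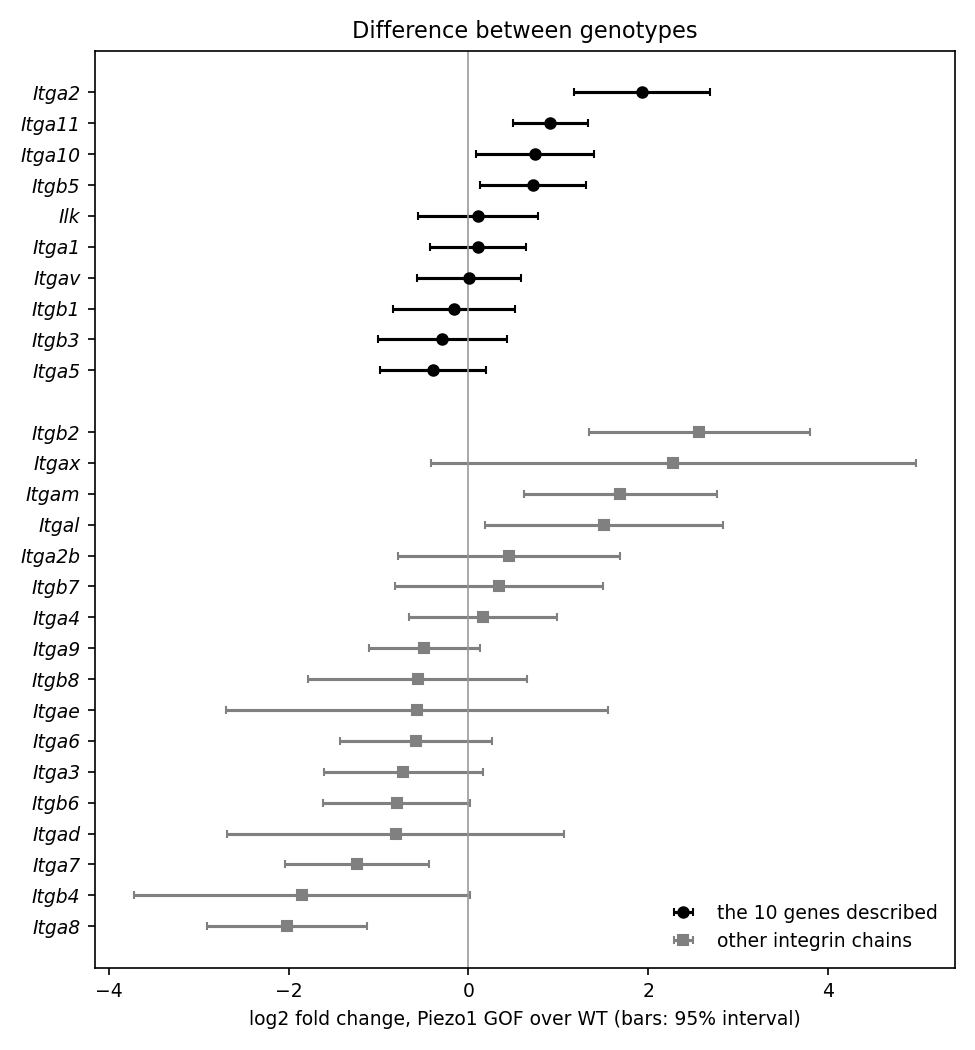
The log2 fold change of Piezo1 GOF over WT with its 95% interval from edgeR's fit, for the 10 genes described (circles) and 17 other integrin chains (squares), ordered by value within each set. The intervals of Itga2, Itga11, Itga10 and Itgb5 lie above 0, and among the others those of Itgb2, Itgam and Itgal lie above 0 and those of Itga7 and Itga8 below.

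Levels of different genes were compared per kilobase of annotated exon. In Piezo1 GOF the order of mean level was Itgb1 at 92.7 ± 24.1 CPM per kilobase, Itgb5 at 87.0 ± 19.8, Itga10 at 31.9 ± 11.8, Itga11 at 22.1 ± 0.891, Ilk at 17.2 ± 3.05, Itga5 at 11.6 ± 3.28, Itgav at 10.9 ± 1.20, Itga1 at 3.87 ± 0.585, Itga2 at 3.73 ± 0.915 and Itgb3 at 1.746 ± 0.5002 (SD, n = 3). In WT it was Itgb1 at 103.9 ± 21.4 CPM per kilobase, Itgb5 at 52.8 ± 6.60, Itga10 at 19.0 ± 2.75, Ilk at 15.96 ± 5.962, Itga5 at 15.3 ± 2.38, Itga11 at 11.8 ± 0.508, Itgav at 10.9 ± 3.07, Itga1 at 3.59 ± 0.880, Itgb3 at 2.14 ± 0.530 and Itga2 at 0.984 ± 0.334 (SD, n = 3). Itgb1 and Itgb5 overlapped in Piezo1 GOF but not in WT. Itga2 was the lowest member in WT, below the range of Itgb3, and in Piezo1 GOF it overlapped Itga1 and stood above the range of Itgb3. Itga10 and Itga11 overlapped in Piezo1 GOF, as did Itga5 and Itgav, while in WT the overlapping neighbours were Itga10 and Ilk, Ilk and Itga5, and Itga11 and Itgav. The length model matters most for Itga1, with 18599 bases of exon in all and 10967 in the transcript with the longest coding sequence. With transcript lengths, an alternative chosen after seeing the data, Itga1 averaged 6.56 CPM per kilobase in Piezo1 GOF and 6.09 in WT, and several neighbours changed places. In Piezo1 GOF, Itgb5 stood above Itgb1 at 101.1 against 99.1 CPM per kilobase, Ilk above Itga11 at 26.25 against 22.86, and Itgav above Itga5 at 16.6 against 13.1. In WT, Ilk stood above Itga10 at 24.4 against 19.6 CPM per kilobase, and Itgav above Itga11 at 16.6 against 12.2.

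As a summed level, the 4 collagen-binding alpha chains stood at 57.7, 75.8 and 51.2 CPM per kilobase in Piezo1 GOF and at 34.1, 36.9 and 35.2 in WT. Within that sum Itga10 had the largest share in all 6 libraries, at 50.6 ± 7.93% in Piezo1 GOF and 53.6 ± 5.51% in WT (SD, n = 3 each), and Itga11 took 36.7 ± 5.81% and 33.3 ± 2.24%. The share of Itga2 was 7.99%, 5.01% and 5.44% in Piezo1 GOF and 3.67%, 1.65% and 3.11% in WT, and did not overlap. The share of Itga1 was 5.65%, 5.16% and 8.63% in Piezo1 GOF and 13.5%, 7.89% and 9.33% in WT. Among the 3 beta chains Itgb5 took 51.8%, 47.1% and 45.1% in Piezo1 GOF and 30.5%, 41.0% and 29.4% in WT, while Itgb3 took 1.03 ± 0.451% and 1.37 ± 0.403%. These shares are descriptions of each library and do not depend on the scaling between libraries.

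**Figure D3:**
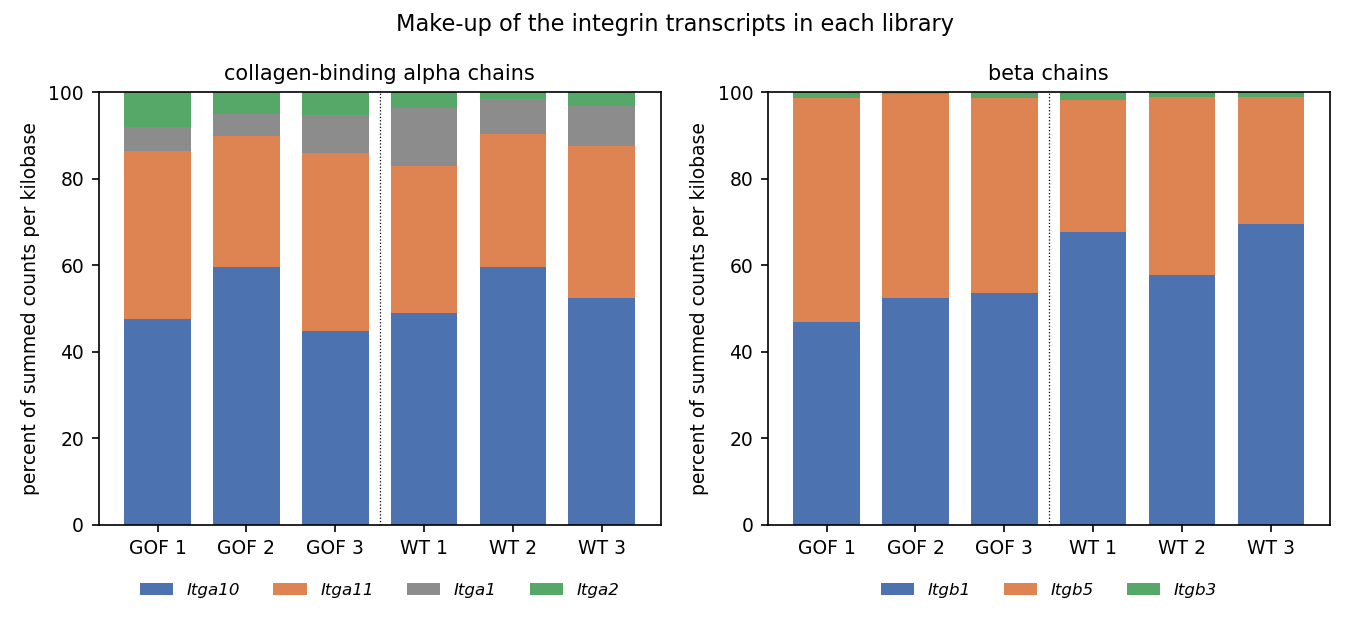
Share of each gene, in percent of the summed counts per kilobase, among the 4 collagen-binding alpha chains (left) and the 3 beta chains (right), with 1 bar per library. Itgb5 takes 45.1% to 51.8% of the beta chain sum in Piezo1 GOF (GOF 1 to 3) and 29.4% to 41.0% in WT, and Itga2 takes 5.01% to 7.99% and 1.65% to 3.67% of the alpha chain sum.

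Ratios of 2 members, both partner chains and chains of the same kind, and of Ilk to Itgb1, were compared within each library over 8 pairs, with a two-sided exact permutation test whose smallest p for 3 against 3 is 0.1, so that no ratio could pass 0.05. The log2 ratio of Itga11 to its partner Itgb1 was -1.76, -2.39 and -1.96 in Piezo1 GOF and -3.14, -2.87 and -3.35 in WT. It was thus higher in all 3 Piezo1 GOF libraries, with a difference of 1.08 (exact p = 0.1; adjusted p = 0.267 over the 8 ratios). The ratio of Itga11 to Itga1 differed by 0.79 (exact p = 0.1; adjusted p = 0.267), with 2.26 to 2.78 in Piezo1 GOF and 1.34 to 1.97 in WT. The ratio of Itgb3 to Itgb5 differed by -1.02 (exact p = 0.1; adjusted p = 0.267), and its groups came close, at -5.13 in the highest Piezo1 GOF library and -5.07 in the lowest WT library. The other 5 ratios overlapped, with exact p-values of 0.3 to 0.8, among them Itga1 to Itgb1 with a difference of 0.30 and Itga5 to Itgb1 with -0.25.

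**Figure D4:**
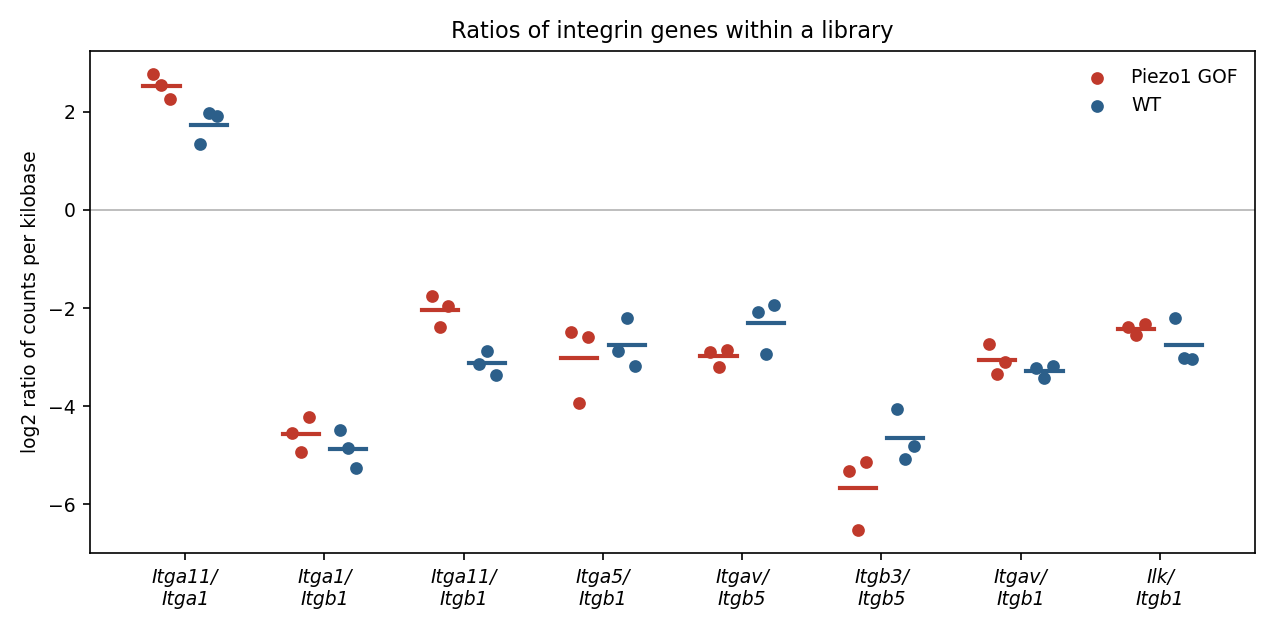
The log2 ratio of counts per kilobase of 2 genes within a library, with 1 point per library, Piezo1 GOF left of WT, and a bar at the mean. The genotypes do not overlap for Itga11 to Itga1, Itga11 to Itgb1 and Itgb3 to Itgb5, and overlap for the other 5 ratios.

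The other integrin chains gave larger differences in both directions than the members did. Of 17 other chains, all tested, 0 passed over all genes by edgeR. At an unadjusted p under 0.05 by that test Itgb2, Itgam and Itgal were higher, and Itga7 and Itga8 were lower. Of all tested genes, 10.2% were higher and 9.59% lower at that p. The median log2 fold change was -0.57 over the 17. Itgal, a leukocyte chain, is named after its values were seen. DESeq2 called 2 higher and 2 lower (3.46% and 2.51% of all genes), and limma voom 0 (0.72% and 0.141%). Itgb2 and Itgam, which pair as the leukocyte integrin Mac-1, were at 18.9 ± 11.3 and 20.36 ± 9.0 CPM in Piezo1 GOF and at 3.26 ± 1.76 and 6.39 ± 3.78 CPM in WT (SD, n = 3). Their log2 fold changes were 2.57 ± 0.54 and 1.69 ± 0.47 (SE; edgeR adjusted p = 0.0989 and 0.145), beside the macrophage markers given above. Itga7, the laminin receptor chain of skeletal muscle, was at 118 ± 43.7 CPM in Piezo1 GOF and 279 ± 82.1 CPM in WT (-1.24 ± 0.36; edgeR adjusted p = 0.148), beside the muscle markers. Itga8, an alpha chain of smooth muscle and other contractile cells, was at 9.75, 7.32 and 9.93 CPM in Piezo1 GOF and at 61.1, 24.5 and 23.8 CPM in WT (-2.01 ± 0.39; edgeR adjusted p = 0.0877). The epithelial chain Itgb4 was at 212 CPM in WT replicate 1 alone and at 20.4 to 26.9 CPM in the other 5 libraries, and Itgb6 was at 42.3 ± 14.6 CPM in Piezo1 GOF and 73.4 ± 33.7 CPM in WT.

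Downstream of the receptors, 0 genes of the 2 lists described passed over all genes by edgeR. Of the Ilk partners, 6 of 7 were tested and 0 had an unadjusted p under 0.05 in either direction by edgeR, with a median log2 fold change of -0.23, and DESeq2 and limma voom called 0. Parva, the parvin that binds Ilk in most tissues, was at 118.6, 164.2 and 143.5 CPM in Piezo1 GOF and at 135.5, 70.1 and 82.9 CPM in WT (0.56 ± 0.29; edgeR adjusted p = 0.304). The PINCH adaptor Lims2 had -0.45 ± 0.25 and Parvb -0.43 ± 0.33 (SE; edgeR adjusted p = 0.341 and 0.483). Of 20 activators and adaptors that bind integrin tails, 19 were tested, with a median of -0.16. By edgeR's unadjusted p under 0.05 there was 1 higher gene and 2 lower genes. Over all tested genes the shares at that p were 10.2% higher and 9.59% lower, so these counts are near the background. The 1 was Fermt3, the kindlin of blood cells (1.39 ± 0.48), and the 2 were the focal adhesion scaffold paxillin (Pxn, -0.78 ± 0.31) and the muscle actin-binding protein nexilin (Nexn, -0.66 ± 0.29).

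The ligands gave the largest values. Of 20 matrix ligands of integrins, all tested, 0 passed over all genes by edgeR. The unadjusted p of edgeR was under 0.05 for 9 higher genes and 2 lower genes, against 10.2% and 9.59% of all tested genes. The median log2 fold change was 0.89. Col1a1 and Col1a2 of this list are also tenocyte markers and Col2a1 is a cartilage marker, whose shares are given above. DESeq2 called 5 higher and 2 lower (3.46% and 2.51% of all genes), and limma voom 1 higher (0.72%). Spp1, which encodes the alpha v ligand osteopontin, was at 849.8, 1433 and 1214 CPM in Piezo1 GOF and at 200.8, 52.5 and 143.5 CPM in WT (3.14 ± 0.51; edgeR adjusted p = 0.0572, DESeq2 adjusted p = 2.31e-10). Ibsp, which encodes bone sialoprotein, another RGD protein, was at 885.5, 1736 and 446.1 CPM in Piezo1 GOF and at 177.6, 19.0 and 71.0 CPM in WT (3.52 ± 0.81; edgeR adjusted p = 0.108). Tgfb1, whose latent form is bound and released by alpha v integrins, was at 50.45, 51.26 and 29.95 CPM in Piezo1 GOF and at 14.9, 11.2 and 19.9 CPM in WT (1.52 ± 0.30; edgeR adjusted p = 0.0877). Fn1, the ligand of alpha 5 beta 1, overlapped between the genotypes at 1971 ± 412.6 CPM in Piezo1 GOF and 1240 ± 755.4 CPM in WT (0.67 ± 0.55; edgeR adjusted p = 0.522), and was chosen after its values were seen.

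The ligands differed among themselves, as 3 more genes chosen after their values were seen show. Vtn, which encodes vitronectin, the namesake ligand of the receptors with Itgav, was at 12.35, 10.63 and 16.61 CPM in Piezo1 GOF and at 30.18, 23.06 and 23.53 CPM in WT (-0.95 ± 0.25; edgeR adjusted p = 0.130). Postn, which encodes periostin, was at 29.65, 17.65 and 48.19 CPM in Piezo1 GOF and at 94.09, 38.71 and 215.0 CPM in WT, with overlap (-1.86 ± 0.59; edgeR adjusted p = 0.168). These were the 2 lower genes, and neither passed by edgeR, while DESeq2 called both. Mfge8, which encodes the RGD protein lactadherin, lay in the other direction, at 870.2 ± 144.3 CPM in Piezo1 GOF and 302.5 ± 145.9 CPM in WT (1.52 ± 0.39; edgeR adjusted p = 0.127).

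Of 8 collagen receptors outside the integrin family, 7 were tested, and the median log2 fold change was 0.77. The unadjusted p of edgeR was under 0.05 for 3 higher genes and 0 lower genes, against 10.2% and 9.59% of all tested genes. Mrc2, the collagen uptake receptor Endo180, was at 176.7, 214.6 and 171.5 CPM in Piezo1 GOF and at 107.3, 74.1 and 130.8 CPM in WT (0.85 ± 0.26; edgeR adjusted p = 0.165). The others were the syndecan Sdc1 (1.61 ± 0.57; edgeR adjusted p = 0.188) and Cd44, a hyaluronan receptor that also binds matrix proteins (0.77 ± 0.29; edgeR adjusted p = 0.208). DESeq2 called Mrc2 and Sdc1 higher at adjusted p-values of 0.0447 and 0.0376, where it called 3.46% of all genes higher.

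For the 3 members with the highest level per kilobase, the genes with the most similar pattern over the 6 libraries were sought by the root mean square distance of centred log2 CPM. Of 10586 genes compared, Abi1, Bbs2 and Gnao1 were nearest to Itgb1, at distances of 0.065 to 0.079 against a median of 0.443. Zfp395, Fam133b and Haghl were nearest to Itgb5, at 0.056 to 0.116 against a median of 0.528. Fam133b, Pias1 and Tmed2 were nearest to Itga10, at 0.080 to 0.097 against a median of 0.571. The smallest of 10586 distances over 6 libraries lie below the median by their selection, so these values do not show a link between the genes.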

How the data were processed

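Gene expression of the Achilles tendon was measured by RNA-seq in 3 Piezo1 GOF and 3 WT libraries, grouped by their titles. Per the labels' protocols, RamDA-seq libraries were primed with NSR primers for mouse. The values deposited by the authors are expected counts per gene, as RSEM gives them, and 7.8% to 8.88% of a library's values were not whole. CPM is such a count divided by the TMM-scaled library size. The submitters' processing notes name bcl2fastq, STAR, RSEM, edgeR and mm10, and the gene annotation is not given in the sources used here. Rounded counts were filtered with filterByExpr (minimum count 10), scaled by TMM and tested over 13466 genes with edgeR's two-sided quasi-likelihood test, without covariates, with Benjamini-Hochberg adjustment at 0.05. The SE is the log2 fold change divided by the root of the F statistic. With 3 libraries per genotype, a common dispersion of 0.113 limits the precision.

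The members and lists were chosen with earlier results of these data known. Of the lists, 3 genes were found under a synonym (Ccn1, Ccn2 and Snorc). The genes named are all members, up to 3 of each list with the smallest p, and the 3 genes nearest in pattern to each of the 3 members of highest level. Itgal, Fn1, Vtn, Postn, Mfge8 and the markers given singly are outside this rule and were named after their values were seen. The result of 1 list is not reported here. Start windows came from RefSeq (GRCm38.p6), and coordinates and lengths from GENCODE on mm10. No library was a copy of another (chi-square per degree of freedom 38.7 to 133 within genotypes). The alternatives were other scaling, filters, DESeq2, limma voom, a replicate block, removal of abundant genes and leaving out each library. The tools were edgeR 4.0.16, DESeq2 1.42.0 and limma 3.58.1 under R 4.3.3, and scipy 1.17.1 under Python 3.11.15.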

Additional observations from a re-analysis of the deposited data

How the results depend on the processing

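With DESeq2, 2 members, 511 genes higher and 371 lower, and 9 and 5 members of the context lists were called, and with limma voom 2 members, 97 genes higher and 19 lower, and 1 list member. Without a filter on low counts these were 1 member, 141 and 24 genes, and 4 and 1 list members. With total counts only, 0 genes were called higher. The median log2 fold change was then 0.19 for the members and 0.1 for all tested genes, against 0.11 and -0.004 in the main fit. Pairing by replicate number was not seen (correlations of deviations -0.207, -0.137 and -0.053). Deviations from the mean of 3 libraries cannot show that it was absent. With the replicate block 0 genes were called, with 3 members at an unadjusted p under 0.05.

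Over the 6 fits without 1 library, 0 to 182 genes were called higher and 0 to 46 lower, 0 to 1 members and 0 to 4 list members were called higher and 0 to 1 list members lower, with the highest counts without WT replicate 1. The members' median was -0.079 to 0.39, and 2 to 4 members had an unadjusted p under 0.05. It was 2, Itga2 and Itga11, without Piezo1 GOF replicate 2, WT replicate 1 or WT replicate 3. Itgav changed sign around 0, at -0.012 with DESeq2 size factors, -0.006 without a filter, -0.001 with a mean CPM filter, -0.016 with DESeq2, -0.18 with voom and -0.20 to 0.21 without 1 library. Itga1 ranged from -0.027 to 0.34, Ilk from -0.13 to 0.44, and the ratio of Itga5 to Itgb1 from -0.51 to 0.21 without 1 library. The cause was not tested. Itga2, Itga10, Itga11 and Itgb5 kept a positive and Itga5, Itgb1 and Itgb3 a negative sign in all 15 alternatives.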

Other observations

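The spread of Itga11 within genotypes was small for its level. Its pooled coefficient of variation was 4.17%, where counting error alone gives 3.5%. Of 3003 genes within 2-fold of its mean level, 0.3% had a smaller one, and their median was 19.5%. The pooled values of the other members were 18.4% to 29.6%.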
